A study of Mus musculus with 13 samples.

Results

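The genes described here encode the proton pump that acidifies lysosomes, the proteins of the lysosomal membrane and the acid hydrolases inside it. They were taken by symbol from the gene list of a single-cell RNA-seq matrix of mouse lung, and all 39 were among its 31053 genes and had counts. By role, 6 encode subunits of the membrane sector of the pump (V0), 8 encode subunits of its cytosolic sector (V1) and 2 encode accessory proteins of the pump. A further 7 encode membrane proteins, 13 encode hydrolases and 3 encode proteins that carry lipid or activate enzymes in the lumen. Counts over the cells kept ran from 352 unique molecular identifiers (UMIs, each standing for 1 captured RNA molecule) for Atp6v0c to 675412 for Psap.

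The lungs came from C57BL/6 mice, which carried no transgene in the sources used here and whose age these do not give. The groups were asthma (sensitised to and challenged with ovalbumin), PPE-emphysema (weekly intratracheal doses of porcine pancreatic elastase, PPE, with the lungs taken days after the last), PPE-recovery (lungs taken long after a single PPE dose) and control, with 1 mouse a group by the study's legend. The matrix names its libraries by number, and no source used here says which number belongs to which group, so the matrix counts as 1 sample and no group was compared. A further 9 samples of the series, labelled Acute injury, Con or emphysema with 3 of each, were not analysed here. Libraries 1, 2, 3 and 7 held lung cells, whereas in libraries 4, 5 and 6 hemoglobin genes took 35.3% to 40.7% of UMIs, against at most 0.031% in the other 4, and these 3 were left out. Barcodes with at most 10% of UMIs from mitochondrial genes were kept, which left 20856 of 24344, or 4800, 7626, 5129 and 3301 in libraries 1, 2, 3 and 7, with 45221640, 76435633, 44826864 and 33298803 UMIs. Pairs of libraries shared 3 to 15 barcode sequences.

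A lysosome is the organelle in which cells break down what they engulf and what they recycle. The vacuolar ATPase pumps protons across its membrane: V1 splits ATP and turns, and V0 carries the protons through. Acid hydrolases work at the low pH this sets up. Macrophages of the lung take up surfactant, dead cells and inhaled particles and are known for abundant lysosomes. Transcription factors of the MiT/TFE family are known to switch on many lysosomal genes through the motif CACGTG, often within the longer motif TCACGTGA.

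That motif was searched in the promoters of these genes, since the longer form is the best known sequence that lysosomal genes share. RefSeq promoter windows (mouse GRCm38.p6, 250 bases before to 50 after the start) were held for 32 of the 39. Those of Atp6v0d2, Atp6v1b2, Atp6v1c1, Atp6v1g1, Atp6v1h, Npc1 and Asah1 were not used here. A gene symbol was counted when any of its windows held the motif. CACGTG, which reads the same on both strands, was found for 9 of the 32 genes (28.1%) and for 8.09% of all 27025 symbols. TCACGTGA, which contains it, was found for 4 of the 32 genes (12.5%) and for 1.12% of all symbols. The 9 genes were Atp6v0b, Atp6v0d1, Atp6v0e, Atp6v1a, Lamp1, Gla, Gaa, Glb1 and Lgmn, and the longer motif was in Atp6v0d1, Atp6v0e, Atp6v1a and Gla. A match is a description of letters and does not show that a factor binds.

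The stretches of 5 of these promoters are shown, 5′ to 3′ on the gene's strand with the motif in capitals, because they give 1 pump, 1 membrane and 3 hydrolase genes with the motif upstream of the RefSeq start. GENCODE M21, which gives the gene positions below, starts Atp6v1a and Lgmn farther upstream, so by it these 2 stretches lie inside the gene, in an intron. The stretches lie at chr16:44139365-44139410 (minus strand, Atp6v1a), chr8:13159080-13159160 (plus, Lamp1), chr11:119267803-119267848 (plus, Gaa), chr9:114401010-114401055 (plus, Glb1) and chr12:102439116-102439161 (minus, Lgmn) of GRCm38.
Atp6v1a: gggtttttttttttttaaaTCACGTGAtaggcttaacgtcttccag
Lamp1: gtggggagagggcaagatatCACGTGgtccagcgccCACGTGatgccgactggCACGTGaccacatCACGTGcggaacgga
Gaa: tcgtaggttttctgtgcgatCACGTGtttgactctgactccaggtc
Glb1: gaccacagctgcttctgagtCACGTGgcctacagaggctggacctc
Lgmn: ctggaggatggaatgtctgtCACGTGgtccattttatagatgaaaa
The Lamp1 window held 4 copies. The first base of CACGTG lay 131 bases before the RefSeq start in Atp6v1a, 140 in Gaa, 48 in Glb1 and 49 in Lgmn.

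Cells were clustered without the 39 genes and clusters were named from marker genes, which gave 24 classes and left 1083 cells unnamed. Alveolar macrophage-like cells, named for markers of the resident cells of the air space, numbered 3248 (678, 1183, 785 and 602 in libraries 1, 2, 3 and 7). Arg1 Mmp12 macrophage-like cells, named for arginase 1 and the elastase MMP12, numbered 1105 (451, 74, 4 and 576), so library 3 gave no value for them. There were 762 C1q macrophage-like cells (272, 302, 111 and 77), named for complement C1q as tissue macrophages are, 1146 classical monocyte-like cells (403, 311, 388 and 44) and 399 alveolar type 2 cell-like cells (52, 179, 142 and 26), the surfactant-making epithelium. Clusters were named from these markers, so high levels of a marker in its own class follow from the naming and do not test it. Ly6c2 was at 1038 to 1645 UMIs per 1000000 UMIs (CPM) in classical monocyte-like cells and Sftpc, a surfactant protein gene, at 131100 to 176300 in alveolar type 2 cell-like cells. Marco was at 138 to 387 in alveolar macrophage-like cells, and C1qa at 4226 to 5626 CPM in C1q macrophage-like cells against 0.993 to 5.81 in alveolar macrophage-like cells. Arg1 was at 670 to 2846 CPM in Arg1 Mmp12 macrophage-like cells against 0.367 to 124 in alveolar macrophage-like cells. Mmp12 was at 991 to 3989 CPM in the former and 15.9 to 1980 in the latter, so it did not part them. Chil3, an alveolar macrophage gene, was at 15070 to 73660 CPM in Arg1 Mmp12 macrophage-like cells and at 14800 to 65940 in alveolar macrophage-like cells, so these classes overlap in it. Spp1 and Rnase2a were also markers on the Arg1 Mmp12 list. Spp1 led cluster 3, which gave 1387 of the alveolar macrophage-like cells, and Rnase2a was among the leading genes of their cluster 11. Median UMIs per cell were 14794 in alveolar macrophage-like, 8350 in Arg1 Mmp12 macrophage-like, 10320.5 in C1q macrophage-like and 9197 in classical monocyte-like cells.

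Levels are the CPM of all UMIs of a class in a library, given in the order of libraries 1, 2, 3 and 7 where that class had at least 30 cells. A class ratio is the ratio of the 2 classes' mean CPM over the libraries with 30 cells of both, each library with equal weight and with 3 counts in place of a lower count, and the range beside it is that of the ratios within libraries. Intervals are exact 95% ones and cover counting error only. Those of ratios use the counts as found, without 3 in place of a lower count. A gene was called between 2 classes when its level was at least 2 times higher, or lower, in every library with 30 cells of both. No p-value was computed, since library numbers are not known replicates of any group.

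Pump genes were highest in 2 of the macrophage classes. The 16 pump genes together were at 5163, 5665, 5022 and 5687 CPM in alveolar macrophage-like cells and at 5339, 5003 and 6278 in Arg1 Mmp12 macrophage-like cells (libraries 1, 2 and 7). In C1q macrophage-like cells they were at 2706, 2268, 2262 and 2422 CPM and in classical monocyte-like cells at 2608, 2337, 2245 and 2571. The first pair of classes lay above the second pair in every library, and no library of any other class passed 2734 CPM. Among the macrophage classes the 13 hydrolases kept the same order of means, with a narrower gap between alveolar and C1q macrophage-like cells. They summed to 5310, 3865 and 5392 CPM in Arg1 Mmp12 macrophage-like cells, to 3256, 3773, 2627 and 3754 in alveolar macrophage-like cells and to 3673, 2947, 2821 and 3306 in C1q macrophage-like cells. Alveolar and C1q macrophage-like cells thus overlapped in summed hydrolases while their pump sums were apart. The hydrolase gene Lgmn averaged 953 CPM of a mean sum of 3187 in C1q macrophage-like cells. In alveolar macrophage-like cells it averaged 501 of 3353, and sums without Lgmn were not computed. Classical monocyte-like cells were at 1465 to 1667 CPM for hydrolases and alveolar type 2 cell-like cells at 635 to 743.

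**Figure D1:**
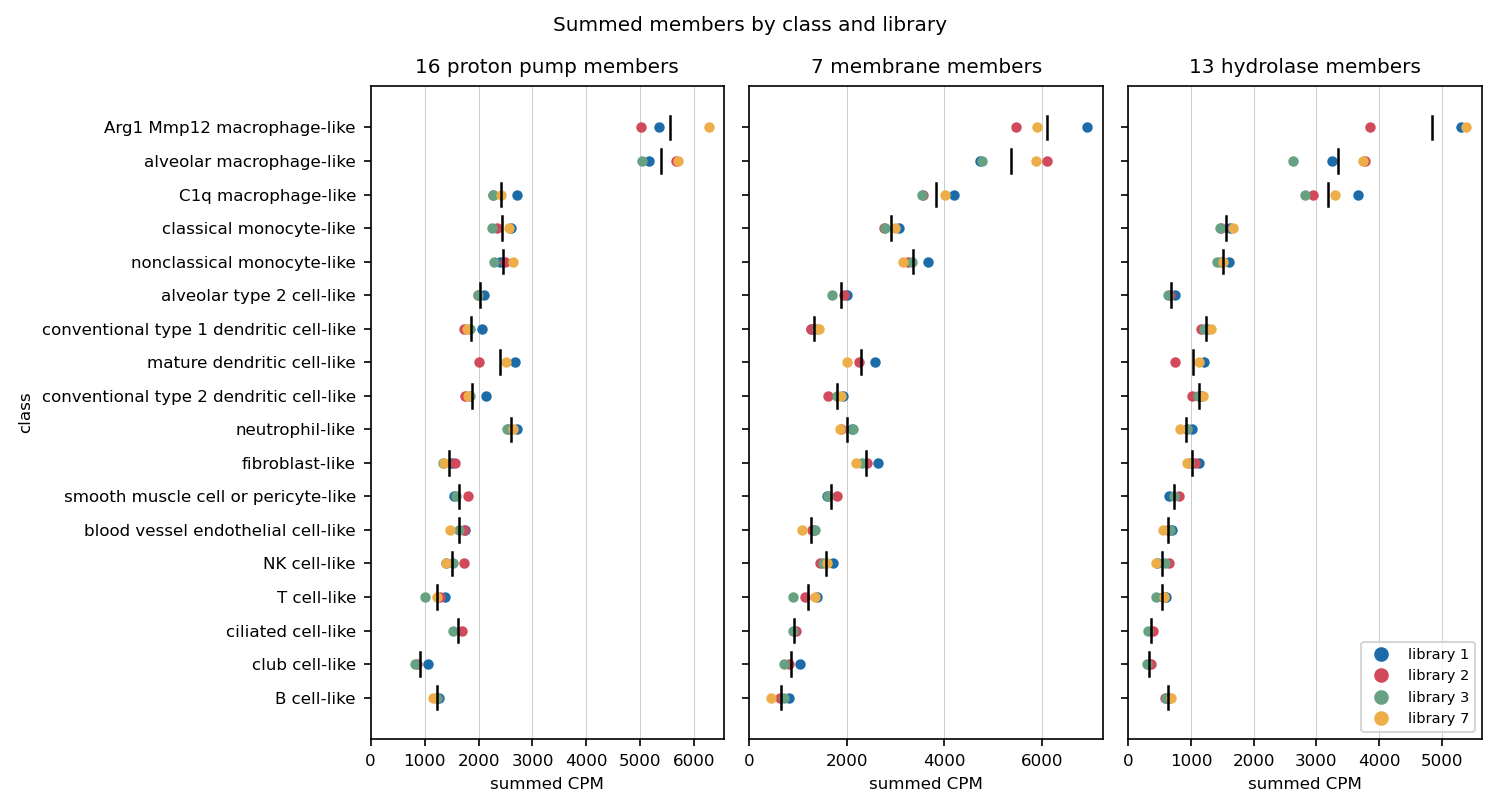
Summed level in CPM of the 16 pump genes, 7 membrane genes and 13 hydrolases in the 18 classes, with 1 point per library that had at least 30 cells of the class and a black bar at their mean. The pump sums of alveolar and of Arg1 Mmp12 macrophage-like cells stood between 5003 and 6278 CPM, above every other class. Hydrolase sums of alveolar and C1q macrophage-like cells, with Lgmn included, overlapped.

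The 7 membrane genes summed to 5473 to 6929 CPM in Arg1 Mmp12 macrophage-like cells, 4733 to 6104 in alveolar macrophage-like cells and 3530 to 4197 in C1q macrophage-like cells. All 39 genes reached 33510, 22590 and 33640 CPM in Arg1 Mmp12 macrophage-like cells, 21560, 23730, 16390 and 25070 in alveolar macrophage-like cells and 17780, 12640, 12700 and 15230 in C1q macrophage-like cells. B cell-like cells had the lowest mean over libraries, 3123 CPM. Psap, the precursor of the saposins that help enzymes reach lipids, made up 36.5% of the sum in Arg1 Mmp12 macrophage-like cells, 28.2% in alveolar and 23.8% in C1q macrophage-like cells, and 2.2% in alveolar type 2 cell-like cells.

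By mean level over libraries, Arg1 Mmp12 macrophage-like cells ranked first among the 18 classes with at least 2 libraries for 26 of the 39 genes. Alveolar macrophage-like cells were first for 7, namely Atp6v0d1, Atp6v0d2, Atp6v0e, Laptm5, Neu1, Lipa and Asah1. These 2 classes held both the first and second place for 21 genes. The means of Arg1 Mmp12 macrophage-like cells lack library 3, and over libraries 1, 2 and 7 alone (17 classes) they were first for 24 genes and alveolar macrophage-like cells for 8, with Atp6v0b and Atp6v0c changing their first class. The other 6 genes had their highest mean elsewhere, Gaa and Scarb2 in fibroblast-like cells, Atp6v1f in mature dendritic cell-like cells, Atp6v1g1 in neutrophil-like cells, Man2b1 in conventional type 1 dendritic cell-like cells and Npc2 in alveolar type 2 cell-like cells. The first class stood clear of the second, with its lowest library above the other's highest, for 6 genes (Cd63, Cd68, Laptm5, Gaa, Neu1 and Npc2). For the other 33 the ranges of the first 2 classes over libraries overlapped, though within libraries some, such as Atp6v0a1, kept 1 order. The first class was 1.64 to 69.1 times above the median class, with a median over the genes of 4.35. No such ranking was made over all genes, so the counts ranked first or standing clear have no share over all genes beside them.

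**Figure D2:**
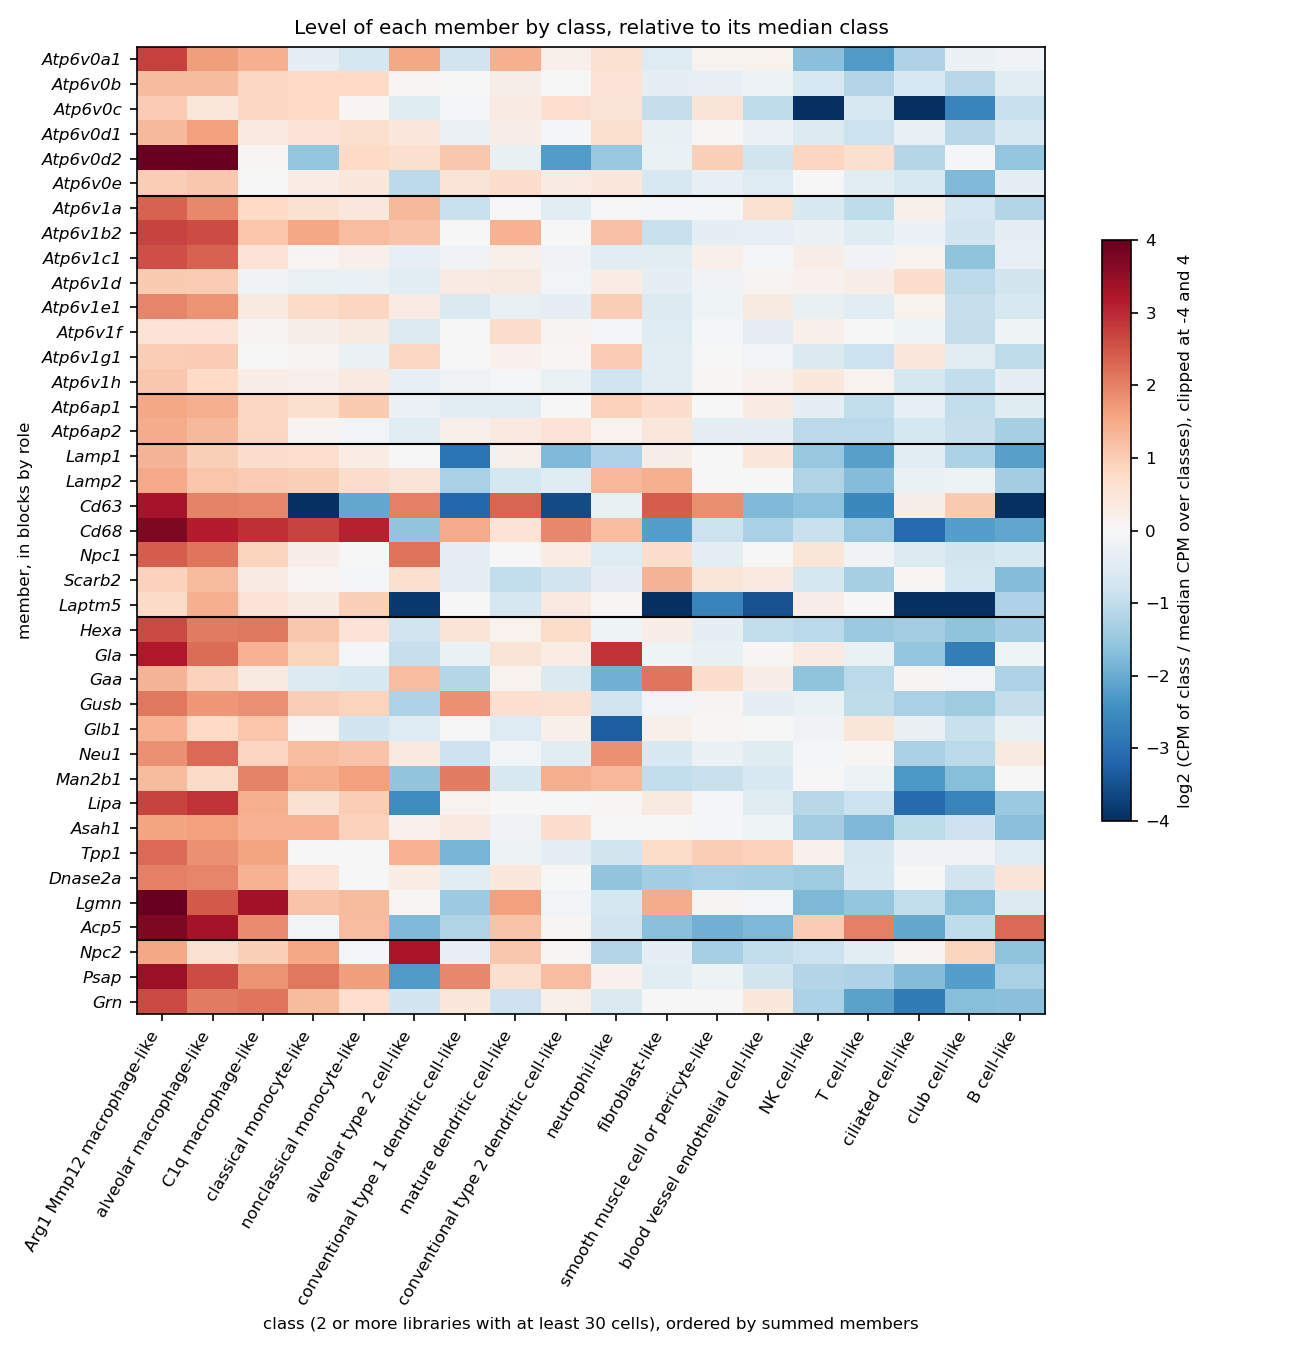
Level of each of the 39 genes in each class with at least 2 libraries, as the mean CPM over libraries on a log2 scale relative to the gene's median over classes, with colours ending at -4 and 4 and genes ordered by role. Alveolar and Arg1 Mmp12 macrophage-like columns hold the highest value for 33 genes, and Npc2 stands highest in alveolar type 2 cell-like cells.

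Alveolar macrophage-like cells were first set against classical monocyte-like cells, which circulate and can give rise to macrophages. Of 10665 genes compared (at least 100 UMIs over both classes), 7.47% were called higher and 6.49% lower. Of the 39 genes, 10 were called higher and 0 lower. The median log2 ratio was 1.06 for the 39 and 0.20 for all genes compared, and 34 of the 39 were higher in every library. How many of all genes were higher or lower in every library, without the 2-times limit, was not computed here or in the comparisons below. By role, 2 of 6 V0, 2 of 8 V1, 0 of 2 accessory, 2 of 7 membrane, 4 of 13 hydrolase and 0 of 3 lumenal genes were called. The difference was thus spread over pump, membrane and hydrolase genes.

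Atp6v0d2, a d subunit of V0 found in few cell types such as osteoclasts and some macrophages (GRCm38, chr4:19876841-19922605, minus strand), differed most. It was at 827, 848, 673 and 1040 CPM in alveolar macrophage-like cells and at 637, 661 and 844 in Arg1 Mmp12 macrophage-like cells. In C1q macrophage-like cells it was at 26.6, 15.1, 4.35 and 6.08 CPM, and in classical monocyte-like cells at 1.14, 8.42, 2.83 and 4.46. The first pair of classes and the second pair did not overlap. The ratio of alveolar macrophage-like to classical monocyte-like cells was 178 (101 to 728 over libraries). In library 7 the monocyte value rested on 2 UMIs, and the interval of the ratio from the counts as found was 64.5 to 1925. With every cell thinned to 1500 UMIs, 65.9% of alveolar macrophage-like cells (64.3% to 67.6%) and 53.9% of Arg1 Mmp12 macrophage-like cells held an Atp6v0d2 UMI, against 1.67% of C1q macrophage-like, 0.264% of classical monocyte-like and 0.724% of B cell-like cells. Without thinning these were 96.5% in alveolar macrophage-like and 2.27% in B cell-like cells. The monocyte share was below that of B cell-like cells, and whether free RNA gave either share was not tested. Thinned shares, here and below, pool the cells of a class over libraries. Cells below 1500 UMIs were left out of the thinned shares, 78 alveolar, 178 Arg1 Mmp12 and 44 C1q macrophage-like, 10 classical monocyte-like and 27 B cell-like cells.

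The a1 subunit of V0, Atp6v0a1, was at 76.7, 89.7, 76.8 and 111 CPM in alveolar macrophage-like and at 15.9, 16.1, 13.3 and 40.2 in classical monocyte-like cells, a ratio of 4.14 (2.76 to 5.77). In Arg1 Mmp12 macrophage-like cells its levels of 98.9, 134 and 325 CPM were above those of alveolar macrophage-like cells in each of the 3 libraries, and the level in library 7 was the highest by far. Of the V1 subunits, Atp6v1c1, which takes part in holding the sectors together, was at 165, 237, 154 and 248 CPM in alveolar macrophage-like and 46.3, 38.9, 31.1 and 49.1 in classical monocyte-like cells (ratio 4.86, 3.56 to 6.08). The catalytic subunit Atp6v1a was at 295, 325, 243 and 361 CPM against 144, 96.8, 89.1 and 156 (ratio 2.52, 2.06 to 3.35). For both the 2 classes did not overlap. The other 6 V1 genes were also higher in every library but did not reach 2 times in each. The remaining V0 genes Atp6v0b, Atp6v0d1 and Atp6v0e and the accessory genes Atp6ap1 and Atp6ap2 were likewise higher in every library without being called. The proteolipid gene Atp6v0c was at 1.96 to 2.61 CPM in alveolar macrophage-like and 1.98 to 4.46 in classical monocyte-like cells. Reads that match several genes equally well are not counted by the authors' software, so that level is uncertain.

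**Figure D3:**
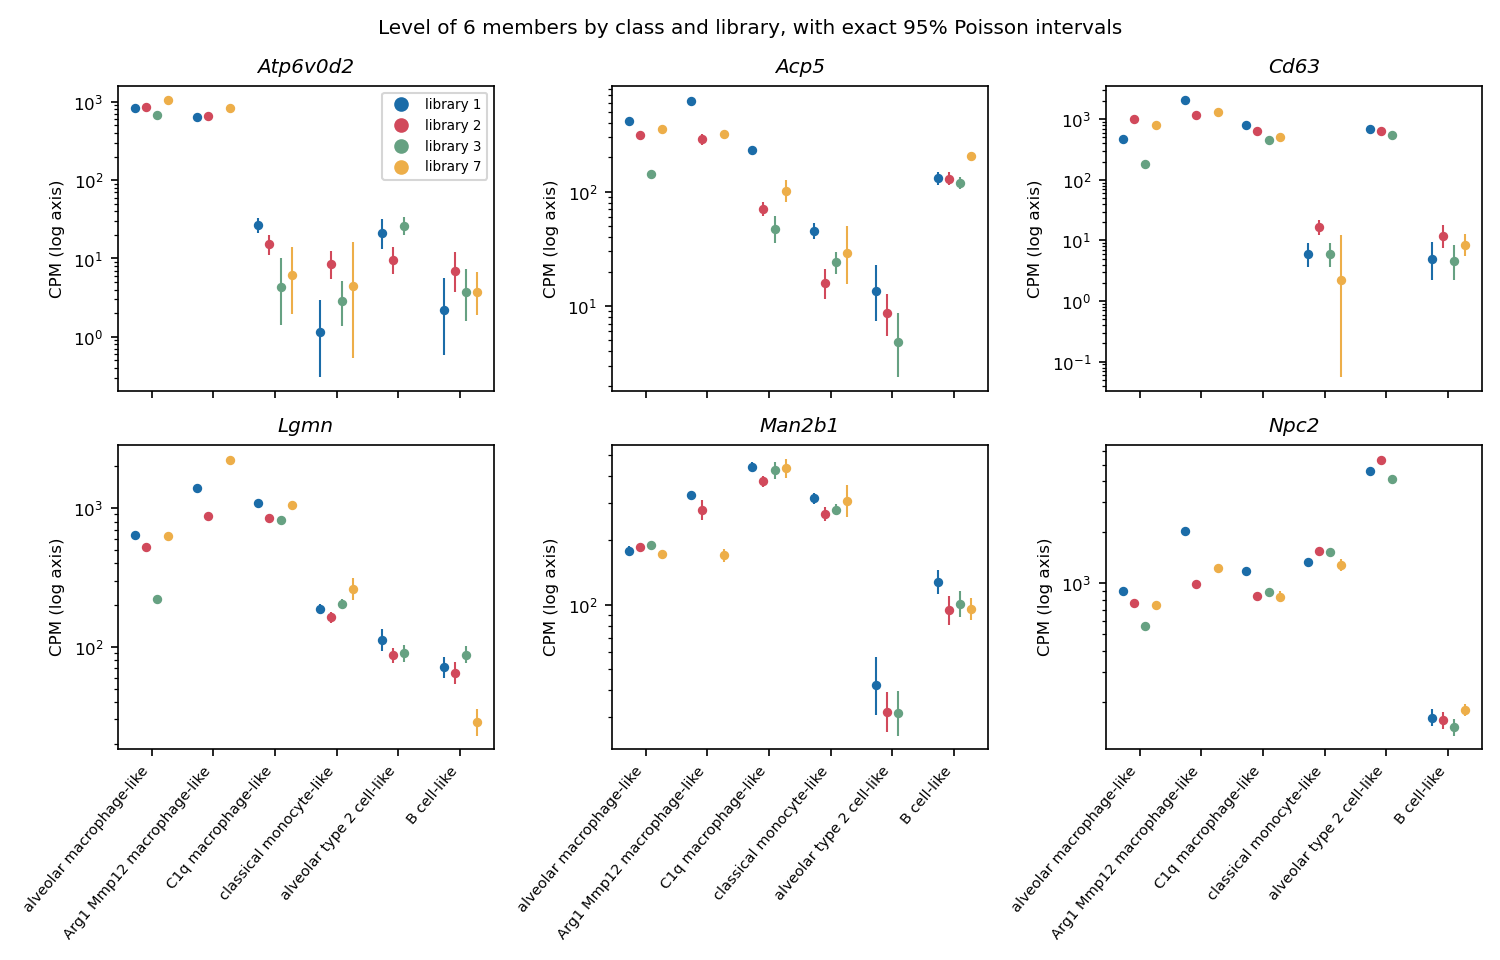
CPM per library, on a log axis with exact 95% Poisson intervals, of Atp6v0d2, Cd63, Lgmn, Acp5, Npc2 and Man2b1 in lung cell classes, 1 point per library with at least 30 cells. Atp6v0d2 was between 637 and 1040 CPM in alveolar and Arg1 Mmp12 macrophage-like cells and at most 26.6 CPM in C1q macrophage-like and classical monocyte-like cells.

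Among membrane genes, Cd63, a tetraspanin of late endosomes and lysosomes (chr10:128900989-128912822, plus strand), was at 472, 993, 183 and 811 CPM in alveolar macrophage-like cells. It was at 2049, 1182 and 1311 CPM in Arg1 Mmp12 macrophage-like and 809, 643, 452 and 508 in C1q macrophage-like cells, but at 5.97, 16.5, 5.94 and 2.23 in classical monocyte-like cells. All macrophage libraries lay above all monocyte libraries, and B cell-like cells were at 4.9 to 11.9 CPM, the range of the monocytes. The ratio of alveolar macrophage-like to classical monocyte-like cells was 70.1 (30.9 to 121). Library 7 had 1 monocyte UMI, and the interval of its ratio from the counts as found was 65.2 to 14360. Npc1, which moves cholesterol out of lysosomes, was at 106, 221, 153 and 209 CPM against 49.4, 33.3, 41.9 and 64.7 (ratio 3.64, 2.14 to 6.64). Laptm5, a lysosomal protein of blood-derived cells, was at 2183, 2399, 2519 and 2483 CPM in alveolar macrophage-like cells and at 1017 to 1248 in classical monocyte-like cells, and it fell short of 2 times in library 1. The structural membrane proteins Lamp1 and Lamp2 differed little, with log2 ratios of 0.29 and 0.14, and Lamp2 was not higher in every library. Cd68, the macrophage sialomucin, had a log2 ratio of 0.43.

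Of the hydrolases, Lipa, which frees cholesterol from its esters, was at 573, 883, 554 and 786 CPM in alveolar macrophage-like cells and 185, 135, 126 and 132 in classical monocyte-like cells (ratio 4.84, 3.1 to 6.54). The peptidase Tpp1 was at 195, 223, 165 and 214 CPM against 60.8, 52.6, 46.1 and 67.0 (ratio 3.52, 3.2 to 4.24). Neither gene's classes overlapped. Dnase2a, which digests the DNA of engulfed cells, was at 115, 130, 148 and 157 CPM against 48.0, 38.6, 44.4 and 78.1 (ratio 2.63, 2.01 to 3.35). Acp5, the tartrate-resistant acid phosphatase known from osteoclasts (chr9:22126727-22135711, minus strand), was at 417, 313, 142 and 355 CPM against 45.5, 15.8, 24.0 and 29.0 (ratio 10.7, 5.92 to 19.8). B cell-like cells had 120 to 204 CPM of Acp5, above the monocytes and overlapping library 3 of the alveolar macrophage-like cells. After thinning, an Acp5 UMI was in 34.1% of alveolar macrophage-like, 41.9% of Arg1 Mmp12 macrophage-like, 15.6% of C1q macrophage-like and 4.4% of classical monocyte-like cells. The share in B cell-like cells was 18.4%, above those of C1q macrophage-like and classical monocyte-like cells.

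Only Npc2 and Man2b1 were lower in alveolar macrophage-like than in classical monocyte-like cells in every library, and neither reached 2 times in each. Npc2, the lumenal carrier that hands cholesterol to NPC1 (chr12:84754562-84773152, minus strand), was at 896, 765, 557 and 746 CPM in alveolar macrophage-like cells and 1340, 1546, 1523 and 1281 in classical monocyte-like cells, a log2 ratio of -0.94. Man2b1, the lysosomal alpha-mannosidase (chr8:85083270-85098282, plus strand), was at 179, 187, 190 and 172 CPM against 314, 266, 278 and 306, a log2 ratio of -0.68. Npc2 thus ran opposite to Npc1, its partner in cholesterol export, which was called higher.

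Arg1 Mmp12 macrophage-like cells were next compared with alveolar macrophage-like cells in libraries 1, 2 and 7. Of 10388 genes compared, 2.14% were called higher and 2.98% lower. None of the 39 was called in either direction, 0 higher and 0 lower, while 8 were higher and 4 lower in every library. The median log2 ratio was 0.24 for the 39 and -0.10 for all genes compared. Lgmn, the asparaginyl endopeptidase legumain that matures other lysosomal proteases (chr12:102394084-102439813, minus strand), came nearest. It was at 1386, 871 and 2226 CPM against 635, 521 and 628 in libraries 1, 2 and 7, with ratios of 2.18, 1.67 and 3.55. The ratios of Cd63 were 4.34, 1.19 and 1.62 and those of Atp6v0a1 1.29, 1.49 and 2.94, so different libraries carried these differences. The alveolar macrophage-like cells of library 1 were mostly of cluster 11 (501 of 678) and those of libraries 2 and 7 mostly of cluster 3. Cd63 was at 466 CPM in cluster 11 of library 1 and at 1123 and 891 in cluster 3 of libraries 2 and 7. The part of this mix in the ratios was not tested. Psap was at 12740, 6527 and 13460 CPM against 6780, 6694 and 8143, nearly equal in library 2. Gla, which cleaves galactose from glycolipids, was at 109, 52.3 and 110 CPM against 39.01, 54.7 and 62.7, and was slightly lower in library 2. Library 2 held only 74 of the Arg1 Mmp12 macrophage-like cells, and without it Lgmn was called higher, which made 1 of the 39. Lower in every library were Atp6v0d1 and Atp6v0d2, both d subunits, with Laptm5 and Neu1, at ratios of 0.79, 0.79, 0.66 and 0.73.

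Pump genes were lower in C1q macrophage-like than in alveolar macrophage-like cells, while hydrolases went both ways. Of 10832 genes compared, 7.35% were called higher and 4.45% lower. Of the 39 genes, 1 was called higher and 5 lower, and the median log2 ratio was -0.54 against -0.11 for all genes compared. Of the 16 pump genes 14 were lower in every library and 4 were called, among them 3 of the 8 V1 genes, all 8 of which were lower in every library. Atp6v0d2 was 65.0 times lower (ratios 0.00584 to 0.0321), from the levels given above. Atp6v1c1 was at 72.8, 48.0, 50.5 and 57.1 CPM in C1q macrophage-like cells, 3.52 times below alveolar macrophage-like cells. Atp6v1b2, the B subunit that pairs with Atp6v1a, was at 166, 99.9, 126 and 198 CPM against 438, 410, 392 and 443, 2.85 times lower. Atp6v1e1, of the outer stalk, was at 150, 141, 146 and 168 CPM against 384, 431, 376 and 461, 2.73 times lower. For each of these the 2 classes did not overlap in any library.

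Of the 13 hydrolases 3 were higher and 5 lower in every library, and the difference between hydrolases and pump genes was not tested. Neu1, the sialidase, was called lower, at 49.5, 60.5, 57.4 and 52.3 CPM against 137, 136, 147 and 167 (2.67 times). Man2b1 was called higher, at 440, 377, 425 and 433 CPM, with a ratio of 2.3 (2.02 to 2.52), but the call ended without alignment of the libraries, at a clustering resolution of 1.5 and without the dividing cluster 20. Lgmn was also higher in every library, at 1084, 850, 818 and 1060 CPM, as were Glb1, the beta-galactosidase, and Npc2. Acp5, Lipa, Tpp1 and Dnase2a were lower in every library without being called. With library 1 left out, 13 of the 39 rather than 5 were called lower. In library 1 most alveolar macrophage-like cells were of cluster 11 (501 of 678), in libraries 2 and 7 of cluster 3 (856 of 1183 and 447 of 602) and in library 3 of cluster 8 (662 of 785). The part of this mix in the result was not tested.

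Between Arg1 Mmp12 and C1q macrophage-like cells, in libraries 1, 2 and 7, 3.13% of 9158 genes compared were called higher and 5.73% lower. Of 38 of the 39 genes (Atp6v0c had too few UMIs), 9 were called higher and 0 lower, the median log2 ratio was 0.85 against -0.04 for all genes, and 35 were higher in every library. At a coarser clustering (resolution 0.4) 3 of the 9 were called. The 9 came from the pump, the membrane, the hydrolases and the lumen. They were Atp6v0d2 (ratio 44.9, 24 to 139), the V1 genes Atp6v1c1 (3.98), Atp6v1e1 (2.96), Atp6v1b2 (2.9) and Atp6v1a (2.87), with Gla (3.67), Acp5 (3.02), Psap (2.88) and Npc1 (2.86). Psap, for instance, was at 5233, 2436 and 3691 CPM in C1q macrophage-like cells in libraries 1, 2 and 7. Man2b1 alone was lower in Arg1 Mmp12 than in C1q macrophage-like cells in every library.

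**Figure D4:**
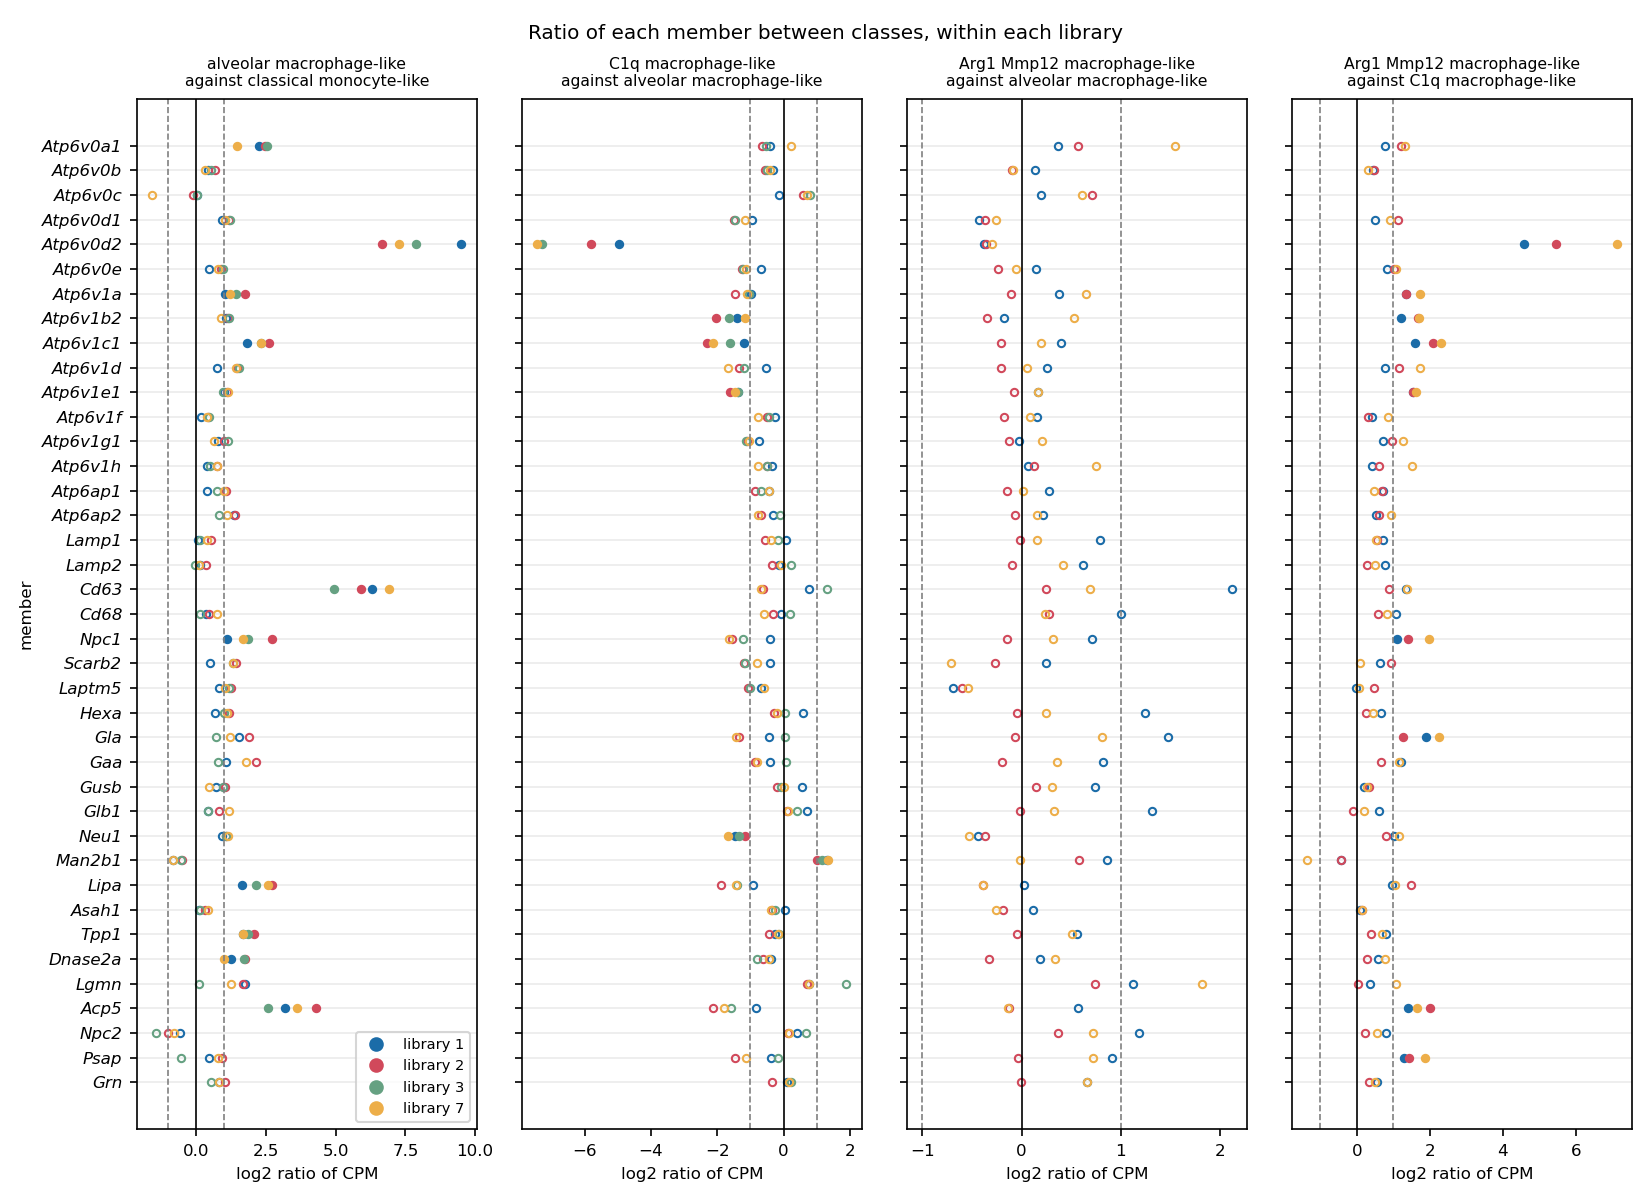
Log2 ratio of each of the 39 genes within each library for comparisons between macrophage-like classes and against classical monocyte-like cells, 1 point per library, filled where the gene was called, with dashed lines at the 2-times limits. Atp6v0d2 lies beyond the limits in 3 comparisons and inside them between Arg1 Mmp12 and alveolar macrophage-like cells, where no gene passed the limit in every library.

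Alveolar macrophage-like and alveolar type 2 cell-like cells share the air space and both handle surfactant. In libraries 1, 2 and 3, 15.8% of 10953 genes compared were called higher in the macrophages and 13.2% lower. Of 38 of the 39 genes, 25 were called higher and 1 lower, with a median log2 ratio of 1.46 against 0.29 for all genes. By role, 4 of 5 V0, 5 of 8 V1, 2 of 2 accessory, 2 of 7 membrane, 10 of 13 hydrolase and 2 of 3 lumenal genes were called higher. The highest ratios were those of Atp6v0d2 (41.2, 25.7 to 87.8), Lipa (39.4), Laptm5 (38.0), Acp5 (32.5), Psap (25.9) and Cd68 (25). In alveolar type 2 cell-like cells Lipa was at 15.4, 16.8 and 18.8 CPM, Laptm5 at 45.3, 54.0 and 87.7, Psap at 302, 162 and 167, and Cd68 at 23.1, 11.1 and 14.8. Sftpc was at 14.1 to 99.3 CPM in alveolar macrophage-like cells, while Chil3 averaged 455 CPM in alveolar type 2 cell-like cells. The part of free RNA in these levels was not tested.

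The gene that went the other way was Npc2. It was at 4565, 5334 and 4128 CPM in alveolar type 2 cell-like cells against 896, 765 and 557 in alveolar macrophage-like cells, 6.32 times higher, and it made up 48.9% of their summed level. B cell-like cells had 142 to 179 CPM. Cd63 went both ways, with 698, 642 and 547 CPM in alveolar type 2 cell-like cells against 472, 993 and 183.

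Alveolar macrophage-like cells were themselves of several kinds, and clusters 3, 8 and 11 were compared as clusters. Cluster 3 (1387 cells) was led by Spp1, Gdf15 and Plet1 and had little of the class markers Marco and Fabp1 (71.3 to 77.6 and 12.1 to 23.4 CPM), so its name is less sure than that of cluster 8 (981 cells, Marco 345 to 822 and Fabp1 235 to 571 CPM). Atp6v0d2, which was not used to cluster, was among its 10 leading genes. With cells far from the mean UMIs or genes left out, alveolar macrophage-like cells numbered 1805 and Arg1 Mmp12 macrophage-like cells 2143. With the 39 genes taking part in the clustering, they numbered 1953 and 2428. Whether it was cluster 3 that changed class was not traced. Cluster 11 had 621 cells, led by Fbp1, Chil3 and Mmp12. Between clusters 3 and 8, 1.09% of 9350 genes were called higher and 0.93% lower, and 0 of 38 of the genes described here in either direction. Between clusters 11 and 8, 1.02% of 8035 genes were called higher and 0.473% lower, and again 0 of 38 in either direction. Of the 38, 20 were higher in cluster 3 than in cluster 8 in each of libraries 1, 2 and 7, and 7 lower. Cd63 was at 1208, 1123 and 891 CPM in cluster 3 against 266, 692 and 544 in cluster 8 in those libraries. After thinning, 70.3% of cells of cluster 3 and 26.4% of cluster 8 held a Cd63 UMI, against 1.38% of B cell-like cells. These shares pool all libraries, and library 3 gave 662 of the 981 cells of cluster 8 but 29 of the 1387 of cluster 3. In library 3 Cd63 was at 179 CPM in cluster 8, and the part of library in the shares was not tested. Lgmn was at 862, 561 and 616 CPM in cluster 3, 665, 654 and 977 in cluster 11 and 419, 386 and 335 in cluster 8, and its ratios to cluster 8 were between 1.45 and 2.92. Atp6v0d2 in contrast was alike, at 815, 889 and 1108 CPM in cluster 3, 836, 744 and 976 in cluster 11 and 887, 818 and 899 in cluster 8.

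Levels of a gene within a class varied between libraries. In alveolar macrophage-like cells the highest library was 1.1 to 5.41 times the lowest, with a median over the 39 genes of 1.36, and in Arg1 Mmp12 macrophage-like, C1q macrophage-like and classical monocyte-like cells the medians were 1.43, 1.4 and 1.35. In alveolar macrophage-like cells 6 genes varied by 2 times or more, namely Cd63, Npc1, Gla, Lgmn, Acp5 and Psap. For 5 of these library 3 was the lowest, with 183 CPM of Cd63, 29.8 of Gla, 220 of Lgmn, 142 of Acp5 and 2839 of Psap. Library and mouse group cannot be told apart here, and library 3 was mostly cluster 8 as given above.

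Among other lysosomal genes, taken from lists chosen for function, the pump genes that are not among the 39 showed 0 called of 6 compared between alveolar macrophage-like and classical monocyte-like cells. Of the other hydrolases and activators 5 of 23 were called higher and 3 lower, of the membrane and sorting genes 2 of 15 higher and 0 lower, and of the regulators 2 of 4 higher and 0 lower. The shares over all genes compared were 7.47% higher and 6.49% lower. The regulators called were Tfec and Mitf, both of the MiT/TFE family. Tfec was at 146, 119, 122 and 174 CPM in alveolar macrophage-like cells, 72.8, 89.2 and 145 in Arg1 Mmp12 macrophage-like cells, 25.4, 19.7, 6.96 and 23.1 in C1q macrophage-like cells and 3.69, 7.72, 6.79 and 22.3 in classical monocyte-like cells. Mitf was at 57.5, 73.2, 56.7 and 72.3 CPM in alveolar macrophage-like and 19.9, 14.0, 13.9 and 13.4 in classical monocyte-like cells. Tfeb, at 46.6 to 58.5 and 43.8 to 58.3 CPM, overlapped between these 2 classes. Sort1, the sorting receptor sortilin, was at 134, 280, 278 and 290 CPM in alveolar macrophage-like, 32.8 to 42.4 in classical monocyte-like and 4.48, 14.5, 11.3 and 4.86 in C1q macrophage-like cells. Pla2g15, the lysosomal phospholipase, was at 154 to 213 CPM against 13.9 to 28.7 in classical monocyte-like cells.

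Between C1q and alveolar macrophage-like cells the counts were 0 of 6 other pump genes in either direction, 2 higher and 2 lower of 23 hydrolases, 0 higher and 2 lower of 15 membrane and sorting genes and 0 higher and 1 lower (Tfec) of 4 regulators. Over all genes compared, 7.35% were called higher and 4.45% lower. Among the higher hydrolases was Sgsh, a heparan sulfatase, with a log2 ratio of 3.47. Between Arg1 Mmp12 and alveolar macrophage-like cells 0 of 5, 1 of 23 (Sgsh, higher), 2 of 15 (Igf2r higher and Sort1 lower) and 0 of 4 were called. For all genes these shares were 2.14% higher and 2.98% lower. Between Arg1 Mmp12 and C1q macrophage-like cells 0 of 5, 1 of 23 (Galns), 3 of 15 (Sort1 and Igf2r among them) and 1 of 4 (Tfec) were called, all higher. Of all genes compared there, 3.13% were called higher and 5.73% lower. Between alveolar macrophage-like and alveolar type 2 cell-like cells 2 of 7 pump genes were higher (Tcirg1 and Ccdc115) and 1 lower, 12 of 23 hydrolases higher and 2 lower, 9 of 15 membrane and sorting genes higher and 1 lower, and 3 of 4 regulators higher and 0 lower. Here 15.8% of all genes compared were higher and 13.2% lower. The pump gene that was lower was Atp6v1c2, a C subunit of epithelia, at 92.5, 153 and 187 CPM in alveolar type 2 cell-like cells, where Atp6v1c1 was at 35.7, 26.8 and 30.6. Between clusters 3 and 8 and between clusters 11 and 8, 0 of 5 pump genes, 0 of 22 hydrolases, 1 of 15 membrane and sorting genes and 0 of 4 regulators were called. That gene was Igf2r in both, higher than in cluster 8, the receptor that carries hydrolases to the lysosome. All genes compared gave 1.09% higher and 0.93% lower for cluster 3, and 1.02% and 0.473% for cluster 11.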

How the data were processed

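Dissociated lung cells were captured in droplets (the labels name version 3 of the kit and the study's supplementary methods version 2). The deposited matrix holds UMI counts per gene and barcode, which the authors made with Cell Ranger (3.1.0 in the matrix header), which runs STAR, on mm10. The authors' further steps, a limit on UMIs and genes and alignment of libraries, were not in the matrix. Genes of the mitochondrion were limited to 10% of UMIs. For clustering, each cell was brought to 10000 UMIs and logged, and 2000 variable genes other than the 39, 30 components, mutual nearest neighbor alignment, 20 neighbors and Leiden clustering at resolution 0.8 were used. A cluster took the best scoring marker list when at least 3 of its markers were in 10% of cells and its 10 leading genes, in 25% of cells, did not go against the name, a rule adjusted after a first look at the clusters. Doublets were left in. Scrublet called 728 cells (3.49%, 0.757% to 5.62% by library), and leaving them out was an alternative.

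UMIs were summed per class and library. A ratio needed 100 UMIs over both classes, and 3 counts stood in for a lower count. Poisson intervals and binomial intervals of ratios and shares were exact. Steps were tested on simulated data. The members, the lists of other lysosomal genes (pump, hydrolases and activators, membrane and sorting, regulators) and the markers were chosen with earlier results of these data known. All 39 genes were accounted for, with values where called, and of the other lists at most 5 called genes per comparison were named, and some called genes are not reported here. Gene positions came from GENCODE M21 and promoters from RefSeq, both GRCm38. Python 3.11.15, numpy 2.4.6, scipy 1.17.1, pandas 2.3.3, scikit-learn 1.9.0, leidenalg 0.10.2, python-igraph 0.11.9, scanpy 1.11.5 and matplotlib 3.10.9 were used.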

Additional observations from a re-analysis of the deposited data

Results flagged for a closer look

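Libraries 4, 5 and 6, which no comparison used and in which hemoglobin genes took 35.3% to 40.7% of UMIs, also held UMIs of the 39 genes, at a summed level of 5481, 2593 and 2681 CPM. In the 4 lung libraries the sum over all cells kept was 9263 to 16870 CPM. No library is known to be a control, and these values stand without a comparison.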

How the results depend on the processing

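Each count of called genes was recomputed with 1 choice changed at a time, and 184 recomputed counts stayed within 1.5 times the count given while 28 did not. Counts that stayed at 0 are among the 184. The log2 ratios of called genes were recomputed too, and 517 stayed within counting error of the value given while 179 did not. The share of all genes called at each changed setting is not reported here, beside the counts that follow or the recomputed counts above. These counts alone therefore do not show whether the 39 genes exceeded that share. Alveolar macrophage-like against classical monocyte-like cells gave 10 higher, 21 at a limit of 1.5 times, 6 at 3 times, 21 on the mean over libraries, and 10 to 15 with each library left out. Arg1 Mmp12 against alveolar macrophage-like cells gave 0 higher, 1 with a mitochondrial limit of 5%, at 1.5 times, after thinning or without cluster 3, 2 on the mean, and 0 to 1 with each library left out (1 without library 2). C1q against alveolar macrophage-like cells gave 1 higher, 0 without alignment, at resolution 1.5, at 3 times or without cluster 20, and 2 at 1.5 times. It gave 5 lower, 3 with limits on UMIs and genes, 12 at 1.5 times, 1 at 3 times, 13 on the mean, and 5 to 13 with each library left out (13 without library 1). Arg1 Mmp12 against C1q macrophage-like cells gave 9 higher, 3 at resolution 0.4, 18 at 1.5 times, 1 at 3 times, 14 on the mean, and 9 to 13 with each library left out. Alveolar macrophage-like against alveolar type 2 cell-like cells gave 25 higher, 14 at 3 times, and 25 to 27 with each library left out. Clusters 3 and 11 against cluster 8 each gave 0 higher and 1 at 1.5 times or on the mean. The cluster comparisons, leaving out clusters 3 and 20 and ranking classes over libraries 1, 2 and 7 were chosen after seeing the data. Fewer genes or cells passing a stricter limit follow from its construction, and other causes were not tested. No paired analysis was possible because the counts come from no test, and each call already rested on ratios within libraries. Counts of 1 to 3 UMIs limit the monocyte values of Atp6v0d2 and Cd63 in library 7.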

Other observations

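Eosinophil-like cells, the granulocytes of allergic inflammation, were held almost wholly by library 7 (212 of 244, with 29, 1 and 2 in libraries 1, 2 and 3), so they had no second library and were in no comparison. They were shallow, with a median of 555 UMIs over all 244 cells, and in library 7 held Ccr3 at 1112 CPM and Prg2 at 594 and Epx, the eosinophil peroxidase, at 6.9, which was 1 UMI. The 39 genes had 1614 UMIs in the 212 cells. Laptm5 was at 3003 CPM (exact 95% interval 2728 to 3299), Psap at 1098 (934 to 1282), Grn, the progranulin precursor, at 732 and Cd63 at 649. The alpha-mannosidase Man2b1 was at 601 (481 to 741) and the sialidase Neu1 at 511 (401 to 641). Within library 7 this class ranked first for Neu1, Man2b1 and Laptm5. Gla and Atp6v0c had 0 UMIs and Gaa 3. The pump genes summed to 2734 CPM, near the classical monocyte-like cells of that library (2571) and below its alveolar macrophage-like cells (5687).

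Fibroblast-like cells ranked first for 2 of the 39 genes. They held the highest mean of Gaa, which breaks down glycogen, at 114, 113, 109 and 106 CPM, and of Scarb2, the receptor that carries glucocerebrosidase to the lysosome, at 287, 229, 287 and 307. Lamp2 was at 517, 473, 469 and 484 CPM in them, against 386, 428, 337 and 420 in alveolar macrophage-like cells, which did not overlap. The highest mean of Lamp2 was in Arg1 Mmp12 macrophage-like cells, at 517.5 CPM against 485.6 in fibroblast-like cells. For Gaa the alveolar macrophage-like cells were at 37.4, 55.4, 33.8 and 61.8 CPM, again without overlap, while Scarb2, at 168, 301, 290 and 269, overlapped. Gla in neutrophil-like cells, at 34.8, 93.3, 99.4 and 66.1 CPM, varied more between libraries than in alveolar macrophage-like cells.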
